A study of Homo sapiens with 16 samples.

Results

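The 6 genes described here encode the pathway that attaches the ubiquitin-like protein ISG15 to other proteins and removes it again. ISG15 is the modifier, UBA7 its activating enzyme, UBE2L6 its conjugating enzyme, HERC5 its main human ligase, HERC6 a ligase of the same family, and USP18 its main protease. They were chosen by name and matched by identifier to the gene column of the deposited count table, in which all 6 of 6 were found among 60671 genes. All 6 also passed the filter on low counts that left 19316 genes for testing.

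The libraries came from HEK293 cells, an established human line derived from embryonic kidney and transformed with adenovirus sequence. The study asked how single transcripts of LINC01016, a gene for a testis non-coding RNA, act in a line in which the submitters state that it is silent. The 16 libraries form 8 groups of 2: parental cells, cells given the empty expression vector, and cells given 1 of 6 cloned LINC01016 isoforms, called T1, T2, CU1, CU2, CU1ENC and CU1ENU. Plasmids had a pcDNA3.0 backbone, and per the labels' protocols 5 micrograms went into each 60 mm plate by lipid transfection 48 hours before RNA extraction. The labels give no other treatment for any group, and they do not say whether parental cells received the lipid reagent. Plasmid DNA and reagent therefore cannot be told apart in any comparison with parental cells. The labels do not say that replicates were separate cultures. The spread behind every p-value is that between the deposited libraries and may be technical.

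ISG15 is one of the genes most strongly switched on by type I and type III interferon. The E1 enzyme UBA7 activates it, UBE2L6 takes it over, and HERC5, which sits on ribosomes, couples it largely to newly made proteins. USP18 cleaves ISG15 from its targets and also binds the interferon receptor subunit IFNAR2, where it damps further signalling. Interferon reaches such genes mainly through a transcription factor complex, with STAT2 and IRF9 in it, that binds a DNA element called the interferon-stimulated response element (ISRE). HERC6 is the main ISG15 ligase of mice, while in human cells HERC5 has that role.

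Promoter sequence was available from RefSeq (GRCh38.p14) for 4 of the 6 genes, ISG15, UBE2L6, HERC5 and HERC6. The windows ran from 250 bases before to 50 bases after each RNA start, and both strands were searched for the ISRE core (GAAA, any 2 bases, GAAA) and for the gamma activated site (TTC, any 3 bases, GAA). The ISRE core was found in the windows of ISG15 and HERC5 and not in those of UBE2L6 (2 starts) or HERC6. Of the 250 bases upstream, 74 and 250 at the UBE2L6 starts and 113 at HERC6 lie in exons of the deposited annotation. For ISG15 and HERC5 it is 0 bases. Those of ISG15 nevertheless lie within the annotated span of the gene, 1001138 to 1014540. Of the 4 genes, only HERC5 has all 250 bases before its annotated start. Of 35116 promoter windows of the same length, 3.57% hold the ISRE core. No window of the 4 genes held the gamma activated site, which 7.66% of all windows hold. The 250 bases upstream of ISG15 (chr1:1013247-1013496, plus strand) and HERC5 (chr4:88456869-88457118, plus strand) are shown because they carry these matches, which are in capitals.
ISG15: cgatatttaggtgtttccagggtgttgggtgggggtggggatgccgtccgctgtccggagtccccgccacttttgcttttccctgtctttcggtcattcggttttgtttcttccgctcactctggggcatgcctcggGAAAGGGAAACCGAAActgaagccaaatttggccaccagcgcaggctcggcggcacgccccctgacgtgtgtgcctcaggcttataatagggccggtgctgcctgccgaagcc
HERC5: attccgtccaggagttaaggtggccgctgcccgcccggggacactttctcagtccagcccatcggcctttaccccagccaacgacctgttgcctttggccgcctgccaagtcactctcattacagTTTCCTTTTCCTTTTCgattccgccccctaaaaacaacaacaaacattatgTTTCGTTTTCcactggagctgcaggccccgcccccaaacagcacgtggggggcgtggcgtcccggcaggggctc
In ISG15 there were 2 matches that overlap each other, GAAAGGGAAA and GAAACCGAAA, both on the strand of the gene. In HERC5 there were 3 matches, all on the opposite strand: an overlapping pair that reads TTTCCTTTTC each time on the gene's strand, and a single TTTCGTTTTC nearer to the start. A match describes letters in the window only and is not evidence that a factor binds there.

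The genes lie at 5 places in the genome, given here as the deposited annotation has them (GRCh38). ISG15 (ENSG00000187608) spans chromosome 1, 1001138 to 1014540, plus strand, with 867 exonic bases. UBA7 (ENSG00000182179) spans chromosome 3, 49805209 to 49813953, minus strand, with 4550 exonic bases. UBE2L6 (ENSG00000156587) spans chromosome 11, 57551656 to 57568284, minus strand, with 2062 exonic bases. HERC6 (ENSG00000138642; chromosome 4, 88378739 to 88443097; 5779 exonic bases) and HERC5 (ENSG00000138646; chromosome 4, 88457119 to 88506163; 4764 exonic bases) are neighbours on the plus strand. USP18 (ENSG00000184979) spans chromosome 22, 18150170 to 18177397, plus strand, with 1858 exonic bases.

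Some counts could be shared with other genes. USP18 has a near copy on the same chromosome, USP41, which received between 0 and 9 counts per library and 0 in the 4 parental and empty vector libraries. Reads that fit both copies may have been lost from either, so the USP18 level is uncertain. Adding the USP41 counts to USP18 changed none of the counts of called genes given here. ISG15 shares 36 exonic bases (4.15% of its exons) with an opposite-strand gene that had 6 to 32 counts, and counting used the strand. UBA7 shares 109 bases with MIR5193, which had 0 counts in every library.

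Library totals ran from 15040770 to 17255935 counts. Levels are given as CPM, counts scaled to the size of the library. Replicates differed far beyond sampling noise in every group (chi-square per degree of freedom 6.76 to 18.9). LINC01016 had 0 counts in both parental libraries, 1 and 0 in the empty vector libraries, and 40405 to 192244 in the isoform libraries, in keeping with every label. Of 8 genes listed as markers of HEK293 cells, all 8 were expressed above the filter, with a summed level of 2305 to 2589 CPM in parental cells, 2608 to 2791 in transfected replicate 1 and 2972 to 3209 in transfected replicate 2. Of 9 leukocyte and red cell markers 3 passed the filter, and all 9 together summed to 1.58 to 2.07, 3.42 to 5.27 and 3.94 to 6.76 CPM in those libraries. PTPRC, the pan-leukocyte marker, had at most 2 counts and HBB at most 1. CD14 measured 1.07 to 1.40 CPM in parental cells, 1.91 to 3.19 in transfected replicate 1 and 2.56 to 4.55 in replicate 2. The 3 tested markers were all higher with the empty vector than in parental cells (median log2 difference 1.86). By edgeR 1 of 3 passed at an adjusted p under 0.05, against 9.41% of all tested genes rising. With the replicate number as a block 3 of 3 passed, against 18.4%. Of 6 fibroblast markers 4 passed, and all 6 together summed to 58.1 to 58.8, 43.9 to 55.6 and 48.9 to 56.5 CPM. The part of these markers in the results below was not tested.

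In parental HEK293 cells all 6 genes were transcribed, and the modifier, its main ligase and its protease stood well above the activating and conjugating enzymes. Per kilobase of exon, ISG15 measured 11.1 and 11.9 CPM in the 2 parental libraries, HERC5 7.98 and 10.1, and USP18 7.23 and 7.28. HERC6 followed with 2.04 and 2.24, UBE2L6 with 1.78 and 1.48, and UBA7 with 0.377 and 0.201. UBA7 rested on 29 and 15 counts, the fewest of the 6. No neighbours in this order overlapped, but the 2 HERC5 libraries differed from each other by more than the HERC5 mean exceeded that of USP18. With 2 libraries the order carries no test.

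Of the 6 genes, ISG15 was the one whose level varied most between parental and transfected cells. Its level was 9.65 and 10.3 CPM in parental replicates 1 and 2, and 180 and 78.4 with the empty vector. The isoform libraries gave 376 and 41.2 CPM for T1, 252 and 149 for T2, 286 and 41.7 for CU1, 343 and 166 for CU2, 288 and 39.4 for CU1ENC, and 245 and 46.3 for CU1ENU. All 14 transfected libraries lay above both parental ones, and all 7 of replicate 1 lay above all 7 of replicate 2. Such separations were seen in 16.8% and 5.45% of all tested genes, in that order. Bulk RNA cannot tell apart a larger share of responding cells and more RNA per responding cell.

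The enzymes of activation and transfer had the same split at far lower levels. UBA7 measured 1.72 and 0.914 CPM in parental cells, 9.44 and 3.71 with the empty vector, 19.6 and 2.34 in T1, 8.14 and 4.79 in T2, 13.3 and 2.59 in CU1, 21.8 and 7.45 in CU2, 12.6 and 2.95 in CU1ENC, and 8.61 and 2.09 in CU1ENU. Every transfected library lay above both parental libraries, and the lowest replicate 1 value lay above the highest replicate 2 value. Of all tested genes 16.8% had the first of these separations and 5.45% the second. UBE2L6 measured 3.67 and 3.05 CPM in parental cells, 12.7 and 3.84 with the empty vector, 39.3 and 2.84 in T1, 19.1 and 9.91 in T2, 28.5 and 2.40 in CU1, 38.0 and 10.9 in CU2, 25.6 and 3.26 in CU1ENC, and 17.7 and 3.27 in CU1ENU. Here the groups overlapped: replicate 2 of T1 and CU1 lay below both parental libraries, and those of CU1ENC and CU1ENU lay between them. Those 4 libraries had 45, 38, 52 and 50 UBE2L6 counts against 62 and 50 in parental cells, and the 95% exact Poisson interval of the lowest, 26.9 to 52.2 counts, takes in the lower parental count. UBE2L6 was there 0.789 to 1.07 times the parental value of the same number. Counting error alone leaves these ratios wide, since parental replicate 2 with 50 counts had an interval of 37.1 to 65.9 counts. Replicates also differed beyond sampling noise, so these libraries do not show that UBE2L6 was unchanged. ISG15 in the same libraries was 3.83 to 4.49 times its parental value of the same number.

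HERC5, the ligase, had the highest parental CPM of the set, and its level varied least. It measured 38.0 and 48.3 CPM in parental cells, 69.4 and 57.5 with the empty vector, 118 and 50.1 in T1, 94.2 and 81.7 in T2, 110 and 47.4 in CU1, 122 and 81.1 in CU2, 99.9 and 48.3 in CU1ENC, and 89.6 and 56.6 in CU1ENU. Replicate 2 of CU1 lay just below the higher parental value, so transfected and parental libraries overlapped.

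HERC6 measured 11.8 and 12.9 CPM in parental cells, 36.7 and 22.7 with the empty vector, 52.8 and 15.2 in T1, 46.5 and 34.3 in T2, 48.4 and 16.2 in CU1, 51.8 and 39.4 in CU2, 43.8 and 16.6 in CU1ENC, and 43.1 and 19.1 in CU1ENU. No transfected library lay in the parental range. The protease USP18 measured 13.4 and 13.5 CPM in parental cells, 44.1 and 28.4 with the empty vector, 92.6 and 19.2 in T1, 64.8 and 43.2 in T2, 78.7 and 19.9 in CU1, 89.9 and 48.1 in CU2, 65.5 and 21.0 in CU1ENC, and 55.4 and 19.8 in CU1ENU. Its lowest transfected library, replicate 2 of T1, was still above both parental libraries. For HERC6 and USP18 every transfected library thus exceeded both parental ones, as in 16.8% of all tested genes.

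**Figure D1:**
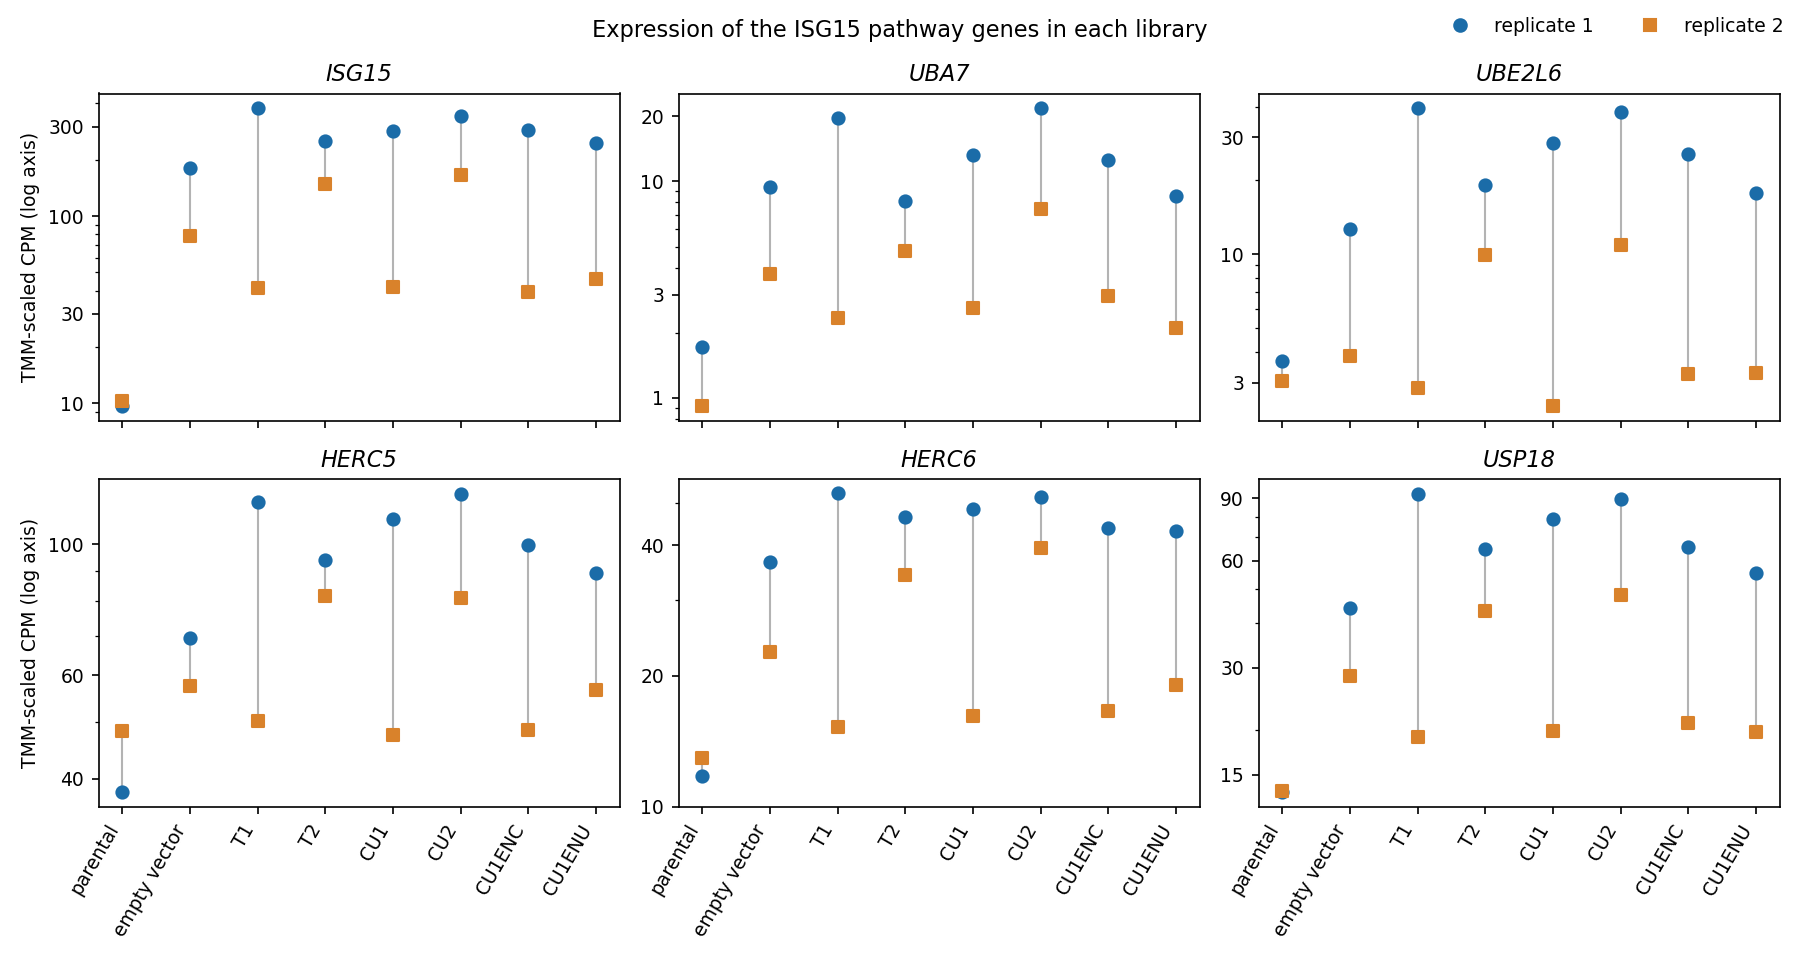
Level of each ISG15 pathway gene in the 16 libraries, as TMM-scaled CPM on a log axis, with 1 panel per gene, groups along the x axis, circles for replicate 1, squares for replicate 2 and a line joining the 2 libraries of a group. In every transfected group and for all 6 genes the circle lies above the square, and the gap is widest in T1, CU1, CU1ENC and CU1ENU.

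The members differed in how far they moved from the parental library of the same number. In the 7 transfected libraries of replicate 1 the median fold was 29.6 for ISG15, 7.36 for UBA7, 6.97 for UBE2L6, 4.88 for USP18, 3.94 for HERC6 and 2.63 for HERC5. In replicate 2 it was 4.49 for ISG15, 3.23 for UBA7, 1.55 for USP18, 1.48 for HERC6, 1.17 for HERC5 and 1.07 for UBE2L6. ISG15 had the highest fold of the 6 in all 14 transfected libraries. HERC5 had the lowest in all 7 of replicate 1 and in 4 of replicate 2, and UBE2L6 had it in the other 3. UBE2L6 thus had the third highest median fold in replicate 1 and the lowest in replicate 2.

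**Figure D2:**
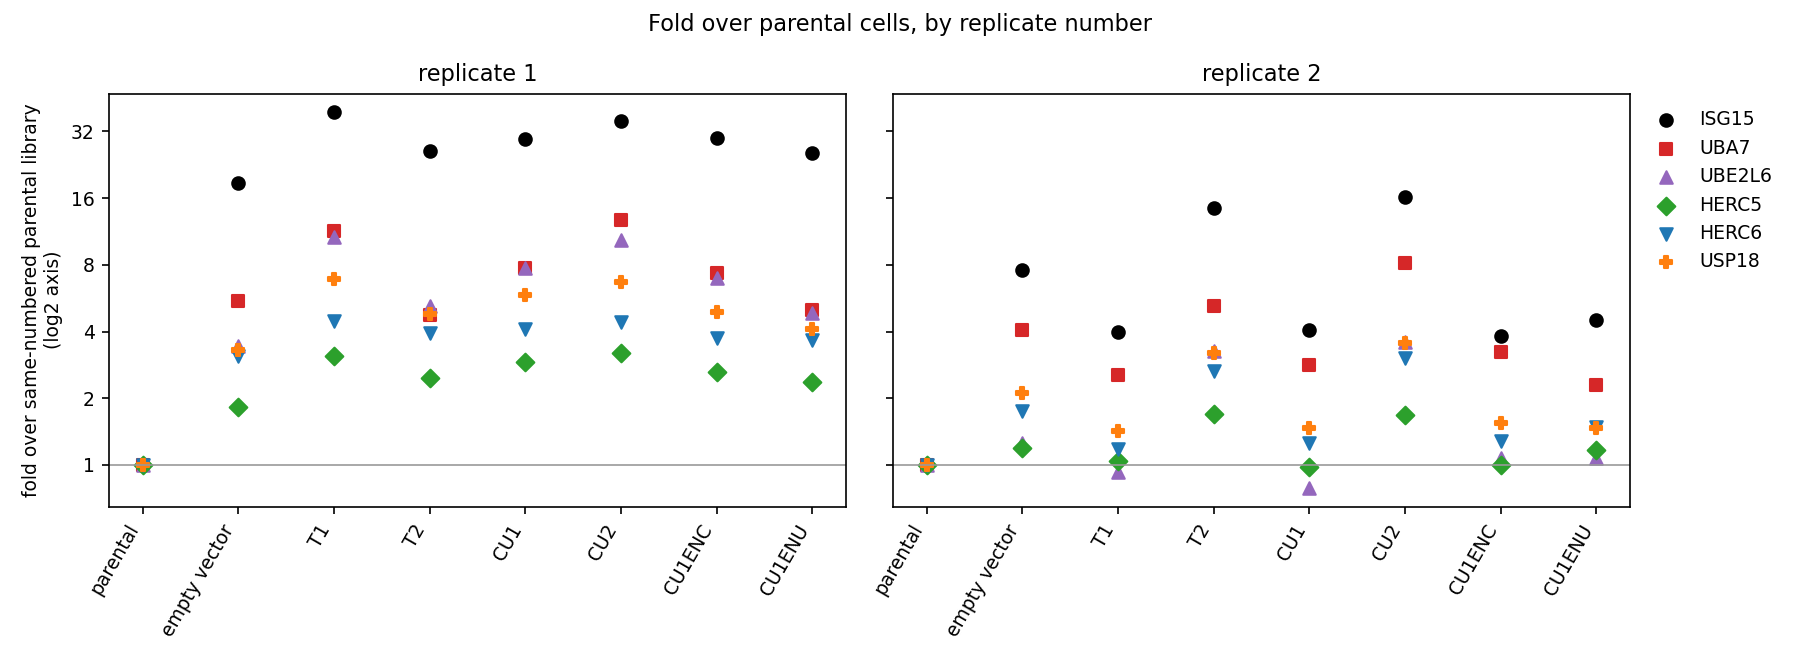
Fold of each gene over the parental library with the same replicate number, on a log2 axis, for replicate 1 (left) and replicate 2 (right), with groups along the x axis, 1 symbol per gene and a grey line at no change. ISG15 is the top symbol in all 14 transfected libraries, and UBE2L6 lies above HERC5 and HERC6 in all 7 of replicate 1. In replicate 2 UBE2L6 is the lowest symbol in T1, CU1 and CU1ENU, but lies beside USP18 in T2 (3.25 and 3.20 times) and CU2 (3.59 and 3.56 times).

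With these unequal folds, the balance of modifier and enzymes differed between parental and transfected libraries. Per kilobase of exon, USP18 stood at 65.0 and 61.3 for every 100 of ISG15 in the parental libraries, at 12.9 or less in transfected replicate 1 and at 13.5 to 24.8 in transfected replicate 2. HERC5 stood at 71.7 and 85.3 per 100 of ISG15 in parental cells, between 5.72 and 7.03 in replicate 1 and between 8.91 and 22.3 in replicate 2. UBE2L6 stood at a median of 14.2 in parental cells, and at 2.96 to 4.66 and 2.06 to 3.48 in the transfected replicates 1 and 2. Its median ratio was 3.73 in replicate 1 and 2.79 in replicate 2, whereas the ratios of USP18 and HERC5 were all higher in replicate 2 than in replicate 1. For these 3 genes transfected and parental ratios did not overlap. They are levels of RNA and say nothing of protein.

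The comparison of empty vector with parental cells asks what transfection without an insert does. All 6 genes were higher in both empty vector libraries than in both parental libraries, which also held for 30.1% of all tested genes. On the log2 scale the differences were 3.70 ± 1.60 (SE, n = 2 against 2) for ISG15, 2.31 ± 1.44 for UBA7, 1.30 ± 1.75 for UBE2L6, 0.56 ± 0.55 for HERC5, 1.27 ± 0.79 for HERC6 and 1.43 ± 1.00 for USP18. None of the 6 passed edgeR's quasi-likelihood test at an adjusted p under 0.05, although 9.41% of all tested genes rose and 6.6% fell. ISG15 came nearest with an adjusted p of 0.161 by edgeR, and an approximate 95% interval that reached up to 166-fold. It alone had an unadjusted edgeR p under 0.05 (0.0484). With the replicate number as a block, edgeR called 2 of 6, against 18.4% of all genes rising. They were ISG15 (3.68 ± 0.95, edgeR adjusted p = 0.0210) and UBA7 (2.34 ± 0.60, edgeR adjusted p = 0.0176). Single libraries moved some of these differences: without empty vector replicate 1 they were 2.98 for ISG15, 1.49 for UBA7 and 0.20 for UBE2L6, and without empty vector replicate 2 the UBE2L6 difference was 1.92.

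The mean of the 7 transfected groups gave larger differences from parental cells. They were 4.15 ± 1.48 for ISG15 (SE, n = 14 against 2), 2.61 ± 1.24 for UBA7, 2.12 ± 1.46 for UBE2L6, 0.89 ± 0.45 for HERC5, 1.48 ± 0.65 for HERC6 and 1.84 ± 0.85 for USP18, all log2. By edgeR 0 of 6 passed (adjusted p from 0.0688 for ISG15 to 0.318 for UBE2L6), against 15.4% of all genes rising. ISG15 alone had an unadjusted edgeR p under 0.05. The replicate block brought 4 of 6 past the threshold, against 23.1% of all genes rising. These were ISG15 (3.95 ± 0.86, edgeR adjusted p = 0.00683), UBA7 (2.57 ± 0.50, 0.00313), USP18 (1.72 ± 0.48, 0.0206) and HERC6 (1.39 ± 0.40, 0.0234). UBE2L6 (edgeR adjusted p = 0.0658) and HERC5 (0.0718) missed it with the block as well. ISG15, UBA7, HERC6 and USP18 are also the 4 genes for which all 14 transfected libraries exceeded both parental ones, a pattern seen in 16.8% of all tested genes.

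Each isoform group on its own showed the same picture against parental cells. All 36 differences (6 genes in 6 isoform groups) were positive, from 0.76 to 4.67 on the log2 scale, and 0 of 36 passed edgeR's test (adjusted p from 0.0939 to 0.580). At an unadjusted p under 0.05 edgeR gave 9 of 36, of which 6 were ISG15. Of all tested genes 10.9% rose and 8.58% fell in T1, while for T2 these shares were 7.26% and 4.53%, for CU1 8.36% and 5.07%, for CU2 9.57% and 6.88%, for CU1ENC 10% and 7.37%, and for CU1ENU 8.77% and 6.18%. With the block, ISG15 and UBA7 passed in every isoform group, USP18 joined them in T1, T2 and CU2, HERC6 in T2 and CU2, and UBE2L6 in CU2 alone. That made 3 of 6 members for T1 (19.6% of all genes rose), 4 for T2 (17%), 2 for CU1 (17.8%), 5 for CU2 (18.4%), 2 for CU1ENC (18.8%) and 2 for CU1ENU (17.9%). HERC5 passed in none of them. These comparisons share the parental libraries, so they do not support each other independently, and the difference between isoforms in these counts is taken up next.

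Whether a LINC01016 isoform changed the pathway is asked by comparing isoform groups with the empty vector. None of the 6 genes passed for any isoform. The 36 differences ran from -0.30 to 1.56 on the log2 scale, 34 of them positive, with an edgeR adjusted p of at least 0.999 and 0 of 36 at an unadjusted p under 0.05. The background was low too: edgeR called 0.00518% of all tested genes up in CU2 and 0.0104% in each of the other 5 groups. For the mean of the 6 isoforms against the empty vector the differences were 0.53 ± 1.09 for ISG15 (SE, n = 12 against 2), 0.35 ± 0.95 for UBA7, 0.96 ± 1.28 for UBE2L6, 0.38 ± 0.43 for HERC5, 0.24 ± 0.58 for HERC6 and 0.48 ± 0.74 for USP18. Again 0 of 6 passed, against 0.0104% of all genes rising, with 0 at an unadjusted edgeR p under 0.05. In this fit, which leaves out the replicate number, the approximate 95% interval of the fold reached from 0.254 to 8.16 for ISG15. For HERC5 it reached from 0.657 to 2.59, so the fit allows sizeable differences in either direction. Without empty vector replicate 1 the differences were 1.25 for ISG15, 1.17 for UBA7 and 2.07 for UBE2L6, and without empty vector replicate 2 the UBE2L6 difference was 0.35. With the block 0 members passed in these comparisons, and 1 of 36 single comparisons, UBA7 in CU2, had an unadjusted edgeR p under 0.05. For the mean of isoforms the block gave smaller SE, with 0.32 ± 0.57 for ISG15 and 0.34 ± 0.30 for HERC5, so intervals from it are narrower.

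An F-test over the 7 transfected groups likewise called 0 of 6, and 0.00518% of all tested genes. Its unadjusted edgeR p ran from 0.882 for UBA7 to 0.990 for ISG15 in the fit that leaves out the replicate number. With the block the unadjusted edgeR p ran from 0.117 for UBA7 to 0.661 for HERC5, and again 0 of 6 passed, against 0.00518% of all tested genes. CU2 had the highest group mean for all 6 genes, ISG15 at 254 ± 125 CPM (SD, n = 2), yet the 2 CU2 libraries differed from each other by 2.07 times in ISG15, and by more in UBA7 and UBE2L6. Within replicate 1, T1 or CU2 ranked first for every gene, and the empty vector ranked last for all genes but UBA7. Within replicate 2, CU2, T2 and the empty vector took the top 3 ranks for every gene.

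In transfected cells the levels of all 6 genes differed by replicate number. Replicate 2 was lower than replicate 1 in 7 of 7 transfected groups for each gene, which held for 12.3% of all tested genes. In the 14 transfected libraries all 6 fell from replicate 1 to replicate 2 by edgeR with the group as a term, against 17.6% of all genes falling. UBE2L6, the conjugating enzyme, fell by 2.34 ± 0.37 on the log2 scale (SE, n = 7 pairs, edgeR adjusted p = 0.00328). The modifier ISG15 fell by 1.99 ± 0.39 (edgeR adjusted p = 0.00840) and the activating enzyme UBA7 by 1.85 ± 0.26 (0.00129). The protease USP18 fell by 1.33 ± 0.25 (edgeR adjusted p = 0.00676), HERC6 by 1.04 ± 0.21 (0.00999) and HERC5 by 0.75 ± 0.16 (0.0122). The 7 pairs are 7 plasmid groups that share the same 2 replicate numbers. The SE and p therefore measure how alike the groups were, not how far a further replicate would differ. No label says what the replicate numbers mark, and plasmid preparation, culture, day and library handling cannot be told apart.

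The size of this split differed between plasmids. For ISG15, replicate 1 exceeded replicate 2 by 9.14 times in T1, 7.32 in CU1ENC, 6.84 in CU1 and 5.31 in CU1ENU, against 2.30 with the empty vector, 2.07 in CU2 and 1.69 in T2. UBE2L6 had the widest single gap, 13.8 times in T1. HERC5 had the narrowest, 1.15 times in T2. For ISG15, UBA7 and UBE2L6 the 7 libraries of replicate 1 all lay above the 7 of replicate 2, as 5.45% of all tested genes did. For HERC5, HERC6 and USP18 the sets overlapped, because replicate 2 of CU2 exceeded replicate 1 of the empty vector.

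Parental cells, a single pair, gave other ratios. The ratio of parental replicate 1 to replicate 2 was 0.937 for ISG15, 1.88 for UBA7, 1.20 for UBE2L6, 0.787 for HERC5, 0.912 for HERC6 and 0.993 for USP18. Tested as an interaction of replicate number and transfection, 0 of 6 genes passed by edgeR (adjusted p from 0.749 for HERC5 to 0.926 for UBA7), against 0.0207% of all tested genes up and 0.0414% down. None had an unadjusted edgeR p under 0.05, while DESeq2 gave 5 of 6 at that level and 0 after adjustment, with no adjusted value for UBA7 and UBE2L6. The estimates were negative for all 6, -2.08 ± 1.64 for ISG15 and -1.09 ± 0.48 for HERC5. Whether the replicate difference depends on transfection is thus not settled by these tests.

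**Figure D3:**
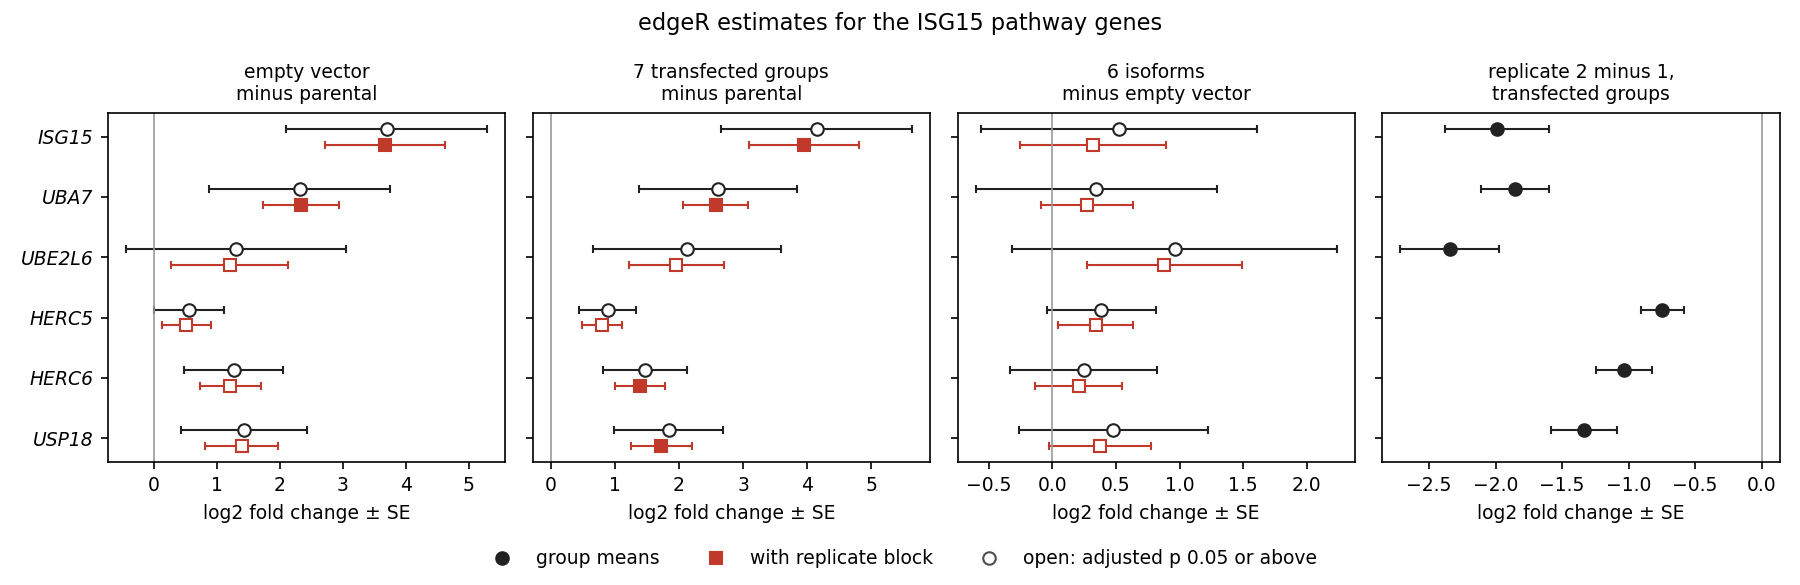
Log2 fold change with its standard error for each gene in 4 comparisons, from edgeR with group means (black circles) and, where made, with the replicate number as a block (red squares); filled symbols have an adjusted p under 0.05. Filled symbols are absent from the comparison of isoforms with empty vector, appear against parental cells with the block alone, and mark all 6 genes in the comparison of replicates.

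Of the interferon genes, IFNB1 and IFNL1 were looked at, and both were at the edge of detection in these libraries. IFNB1, which encodes interferon beta, had 0 counts in both parental libraries, 7 and 3 with the empty vector, and between 2 and 29 in the isoform libraries. IFNL1, a type III interferon gene, had 0 counts in parental cells, 9 and 7 with the empty vector and between 0 and 18 in the isoform libraries. A count of 0 allows a level of up to 3 counts, or 0.178 and 0.183 CPM in the parental libraries.

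Genes whose pattern over the 16 libraries was nearest to each member were found by the root mean square difference of centred log2 CPM, among 19315 other tested genes. For ISG15 they were IFI6 (0.257), MX1 (0.293) and OAS3 (0.334). For UBA7 they were HELZ2 (0.333), RIGI (0.362) and IFIH1 (0.368), and for UBE2L6 SHFL (0.209), IFITM3 (0.263) and DDX60L (0.284). HERC5 lay nearest to TRIM25 (0.0936), SP100 (0.115) and EIF2AK2 (0.118). HERC6 lay nearest to PARP9 (0.139), PLSCR1 (0.139) and TRIM21 (0.153), and USP18 to DTX3L (0.137) and SP110 (0.150). The measure reads both the shape and the size of a pattern, so members that moved by unlike amounts can lie far apart. USP18 stood at rank 8 among the genes nearest to UBA7 and HERC6 at rank 8 among those nearest to USP18, while the ranks of ISG15 and HERC5 depended on which gene was the reference. At the same distance of 1.20, HERC5 stood at rank 133 among the genes nearest to ISG15, and ISG15 at rank 19278 among those nearest to HERC5.

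Other ligases and proteases that act on ISG15 differed less from parental cells in the median. Of 8 such genes, all tested, 3 rose and 1 fell in the mean of the transfected groups, with a median of 0.24 on the log2 scale against -0.004 over all tested genes and 1.98 over the 6 members. Of all tested genes edgeR called 15.4% up and 14.3% down in that comparison. Those that rose were USP2 (0.82 ± 0.20, edgeR adjusted p = 0.00723), ARIH1, also known as a ubiquitin ligase (0.33 ± 0.07, 0.00447), and USP16 (0.29 ± 0.10, 0.0472). USP13 fell by 0.26 ± 0.07. TRIM25, a ubiquitin ligase that also transfers ISG15, differed by 0.83 ± 0.45 (edgeR adjusted p = 0.208). Its levels were 99.9 and 106 CPM in parental cells, 185 to 267 in transfected replicate 1 and 109 to 184 in replicate 2. The differences of USP2 and TRIM25 were close to that of the member HERC5 (0.89 ± 0.45). Between replicates TRIM25 was the 1 gene of the 8 that fell (0.80 ± 0.14 lower, edgeR adjusted p = 0.00470), and 5 rose, by at most 0.37. Of all tested genes 17.5% rose and 17.6% fell between replicates.

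The ubiquitin genes and enzymes that correspond to the members differed little from parental cells. Of 10 reported here, 9 were tested, and in the mean of transfected groups edgeR called 0 of 9 (0 at an unadjusted p under 0.05), with a median of -0.04. With the block 1 rose and 4 fell, each by less than 0.3, against 23.1% of all tested genes rising and 22.5% falling. UBA1, the main ubiquitin E1, measured 705 to 709 CPM in parental cells and 721 to 802 in transfected cells, and UBE2L3, the closest ubiquitin counterpart of UBE2L6, 157 to 175 and 152 to 180. Between replicates HERC1 and HERC2, large relatives of HERC5, fell by 0.35 and 0.24. Of 24 genes of other ubiquitin-like systems (NEDD8, SUMO, UFM1 and FAT10), 23 were tested, and 6 rose and 2 fell in the transfected mean, with a median of 0.03. In that comparison 15.4% of all tested genes rose and 14.3% fell. The modifier UFM1 had the lowest p (0.52 ± 0.06, edgeR adjusted p = 5.8e-05), at 59.0 to 61.0 CPM in parental cells and 79.5 to 92.7 in transfected ones. UBD, the gene of the interferon-gamma-induced modifier FAT10, was the 1 not tested, with at most 1 count in any library.

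Among interferon receptor and signalling genes, IRF9 and STAT2 of the ISRE-binding complex differed between the replicates. Of 8 reported here, all tested, 1 rose and 1 fell in the transfected mean, IFNLR1 by 0.27 ± 0.08 (edgeR adjusted p = 0.0215) and IFNAR1 by 0.22 ± 0.07 (0.0259), with a median of -0.22. Over all tested genes 15.4% rose and 14.3% fell. Between replicates 3 fell: IRF9 by 1.77 ± 0.16 (edgeR adjusted p = 9.2e-09), STAT2 by 1.15 ± 0.17 (0.00216) and TYK2 by 0.19 ± 0.03. JAK1 rose by 0.13. Over all tested genes 17.5% rose and 17.6% fell between replicates. IRF9 measured 2.01 to 2.50 CPM in parental cells, at least 6.73 in transfected replicate 1 and 1.14 to 3.69 in replicate 2, so like UBE2L6 its replicate 2 levels overlapped the parental ones. STAT2 measured 48.7 to 57.7, 87.9 to 138 and 36.9 to 72.9 CPM in the same libraries. With the block neither passed against parental cells (edgeR adjusted p = 0.0918 for IRF9 and 0.263 for STAT2).

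Among genes of proteins described as ISG15 targets, the interferon-induced ones differed by replicate number. Of 15 reported here, all tested, which share JAK1 with the list before, 2 rose and 1 fell in the transfected mean: IRF3 by 0.25 ± 0.06, CHMP5 by 0.23 ± 0.08 and, downward, PCNA by 0.25 ± 0.06. The median was 0.16, and 15.4% of all tested genes rose and 14.3% fell. With the block 8 rose and 3 fell, against 23.1% and 22.5% of all tested genes. The sensors RIGI (2.32 ± 0.71, edgeR adjusted p = 0.0315) and IFIH1 (2.45 ± 0.60, 0.0117), EIF2AK2 (0.79 ± 0.25, 0.0351), MX1 (3.40 ± 0.95, 0.0217) and IFIT1 (4.13 ± 1.19, 0.0244) were among those that rose. Between replicates these 5 fell, from 0.78 ± 0.13 for EIF2AK2 to 2.43 ± 0.54 for IFIT1, and 2 rose. The other 8 did not pass that test, in which 17.5% of all tested genes rose and 17.6% fell.

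**Figure D4:**
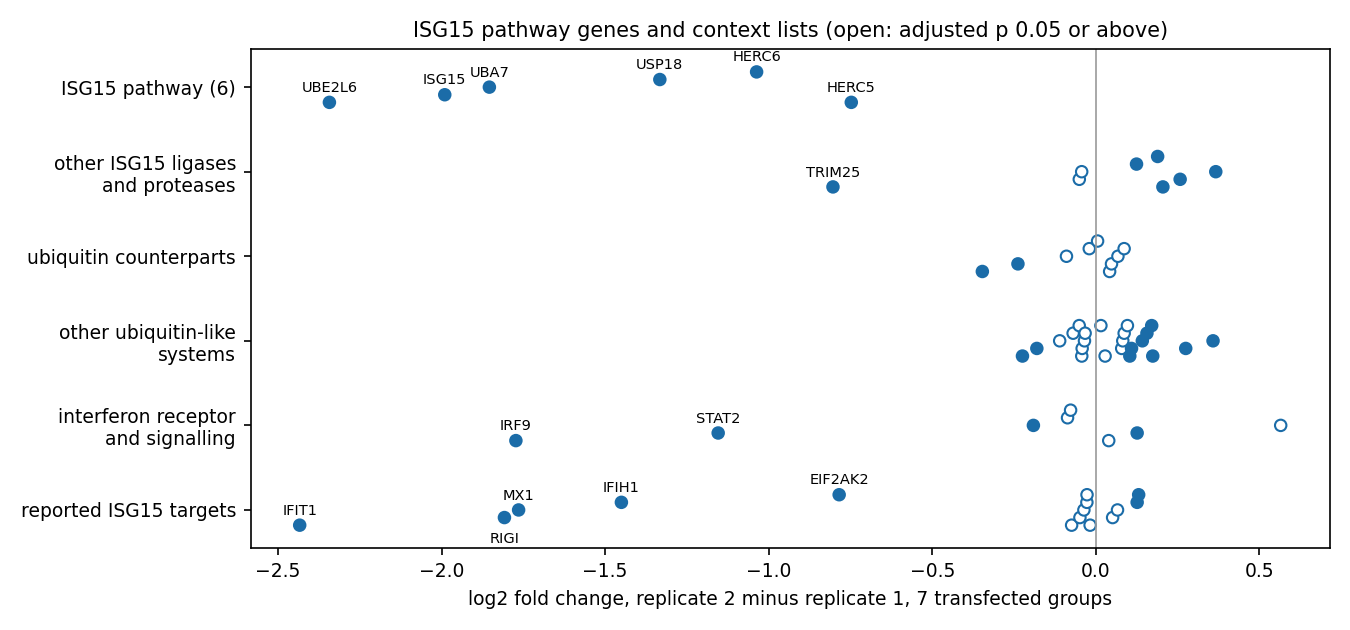
Log2 fold change from replicate 1 to replicate 2 in the 7 transfected groups for the 6 ISG15 pathway genes and 5 lists of related genes, 1 point per tested gene, filled where the adjusted p is under 0.05. The 6 pathway genes lie between -2.34 and -0.75, as do TRIM25, IRF9, STAT2 and several reported targets, with IFIT1 lower at -2.43, while the ubiquitin counterparts and other ubiquitin-like systems lie between -0.35 and 0.36.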

How the data were processed

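Total RNA of 16 HEK293 libraries was sequenced from strand-specific paired-end libraries, per the labels' protocols. The deposited table holds raw read counts by gene, as whole numbers. The authors made them with featureCounts 2.0.1 (read pairs, reverse-stranded, exons of Ensembl release 101), per the file headers. The header command names no option for reads that map to several places. The submitters' processing notes name HISAT2, DESeq2 and GRCh38.p13. How reads were aligned is otherwise not given in the sources. Exonic lengths are from the deposited table. Symbols were matched to 60401 of 60671 identifiers. Groups and replicate numbers came from the sample titles. Library totals were 15040770 to 17255935 counts, and intervals cover counting error only.

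Counts were tested with edgeR 4.0.16 (R 4.3.3): filterByExpr (minimum count 10, total 15), TMM factors of 0.974 to 1.03, robust quasi-likelihood F-tests on 8 group means (8 residual degrees of freedom) and Benjamini-Hochberg adjustment over 19316 genes, with a threshold of 0.05. The comparison of replicates used the 14 transfected libraries with group as a term. SE was taken as the size of the log2 fold change over the root of F, and intervals from it are approximate. CPM are TMM-scaled, and log2 CPM for pattern likeness used a prior count of 2. With 2 against 2 libraries an exact permutation cannot go below p = 0.333. The fits with and without the replicate block were also run on simulated counts, for the empty vector against parental cells alone. Those counts held no difference shared by replicate number, so they say nothing on how the fits handle the replicate split.

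With group means removed, libraries of the same number deviated alike in 28 of 28 pairs of groups (r from 0.162 to 0.442, median 0.248). The numbers were therefore treated as pairing the libraries, from the data, since no label says so. The replicate block used 1 degree of freedom more, leaving 7 (common dispersion 0.00436 against 0.0184). Alternatives were no count filter, RLE size factors, no robust shrinkage, USP18 and USP41 added, the block, DESeq2 1.42.0 and leaving out each library. The interaction test and DESeq2 with the block were added after seeing the data. All 6 members are named. Some list genes and their values are not reported here, and list counts leave them out. From each list the genes named are up to 3 called genes of lowest p per direction and those whose role the text needs. The members, lists and tests were chosen with earlier results of these data known. No column was without a sample.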

Additional observations from a re-analysis of the deposited data

Results flagged for a closer look

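Effects of isoforms against the empty vector pointed opposite ways in the replicate numbers. ISG15 was above the same-numbered empty vector library in replicate 1 and below it in replicate 2 for 4 of 6 isoforms, T1 (2.09 and 0.525 times), CU1 (1.58 and 0.532), CU1ENC (1.60 and 0.503) and CU1ENU (1.36 and 0.590). The same 4 isoforms did so for UBE2L6, HERC5, HERC6 and USP18, so the count was 4 for each of these genes. For UBA7 it was 3, with CU1ENU below the empty vector in both (0.911 and 0.563 times). CU2 was above the empty vector in both numbers for all 6 genes, at 1.90 and 2.11 times for ISG15, and so was T2 for all genes but UBA7, at 1.40 and 1.90 times for ISG15. Each value is 1 library against 1 library, the members share the same libraries, and the difference between replicate numbers was not tested for single isoforms.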

How the results depend on the processing

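Counts of called members under other settings are given here in the order empty vector, mean of 7 transfected groups, T1, T2, CU1, CU2, CU1ENC and CU1ENU, each against parental cells, where edgeR called 0 throughout. With the replicate block they were 2, 4, 3, 4, 2, 5, 2 and 2, with DESeq2 1, 4, 2, 1, 1, 3, 1 and 1, and with DESeq2 and the replicate block 3, 5, 4, 5, 3, 6, 3 and 3. Of 38201 genes DESeq2 called 3.85 to 7.52% up in these comparisons, and 7.14 to 10.2% with the block. Without robust shrinkage 2 were called in the mean and 1 each in T1, T2, CU2 and CU1ENC, against 15.5% of all tested genes rising in the mean and 7.15 to 10.9% in those 4 groups. Without the filter on low counts edgeR called all 6 in each of the 8 comparisons, against 5.09% of 38201 genes rising with the empty vector, 7.74% in the mean and 4.42 to 5.97% in single isoforms. That setting also called 6 in CU2 against empty vector (0.191% of all genes rose) and 6 in the F-test (0.199% were called). It called 3 each in T1 (0.0838%), T2 (0.089%) and the mean of isoforms (0.089%) against empty vector, and 1 in CU1 (0.0445%) against empty vector. In that fit the prior degrees of freedom of edgeR were infinite for ISG15 and also in the median over all 38201 genes. Where they are infinite, the spread of a gene between its own replicates does not enter. For the other members this value was not looked up, so their calls in that setting may have the same limit. RLE size factors and the added USP41 counts changed no count. The replicate block changed no call against the empty vector or in the F-test.

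Leaving out each library in turn gave 0 to 0 called members in these comparisons and 6 to 6 between replicates, with HERC5 at most at an edgeR adjusted p of 0.0397. Of 654 single values under alternatives 615 kept direction and side of the threshold, 36 newly passed and 3 reversed, all in the mean of isoforms against empty vector: UBA7 at -0.17 without empty vector replicate 2 and -0.03 without T1 replicate 1 (range to 1.17), and HERC6 at -0.058 without empty vector replicate 2 (range to 0.63). Depth limits UBA7 and UBE2L6 most, with as few as 15 and 38 counts.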
